A study of Drosophila melanogaster with 4 samples.

Results

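The larval cuticle protein families of *Drosophila melanogaster* were described in 2 control (wDah) and 2 *DmAngel* KO ribosome profiling libraries of third-instar larvae. Members were all genes of the BDGP6.54 annotation whose symbols start with Cpr and a digit, Lcp, Ccp84A or Twdl, together with Acp65A, Edg78E, Edg84A and Edg91. This rule found 124 of 17677 genes, of which 70 are Cpr, 26 Twdl, 11 Lcp65A, 6 other Lcp, 7 Ccp84A and 3 Edg genes, and 1 is Acp65A. The rule used names alone and no measured value. The annotation lists 3 of the 124 genes as pseudogenes, namely Lcp1Psi, Lcp65APsi and TwdlU.

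Control larvae were Angel+/+ in the Wolbachia-free white Dahomey background, to which the knockout had also been backcrossed. The *DmAngel* KO larvae were Angel-/- and carried a germline CRISPR/Cas9 deletion aimed at the start of translation, the libraries coming from a single knockout line (KO-1). Both groups were collected by age, 4 days after the eggs were laid, and every sample was treated with RNase T1. The material was a mitochondrial lysate of whole larvae, and the libraries hold small RNA fragments from the monosome fractions of a sucrose gradient. Reads on cuticle genes therefore come from nuclear-encoded transcripts that remained in a preparation made for mitochondrial ribosomes, and whether a cytosolic ribosome shielded them was not tested. In such bulk samples, fewer cells of a type and less RNA per cell cannot be told apart.

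Insect cuticle is a layered extracellular matrix of chitin fibres and proteins that the epidermis secretes at its apical side and renews at each moult. Most of its structural proteins belong to the CPR family, whose members carry the Rebers-Riddiford motif, a chitin-binding stretch. The Lcp (larval cuticle protein), Lcp65A, Ccp84A, Acp65A (adult cuticle protein) and Edg (ecdysone-dependent gene) members named here are mostly CPR proteins as well, while the Tweedle proteins (Twdl) form a separate family, known from dominant alleles that shorten and widen the body. Different cuticle genes are used at different moults and at different times between them, and they lie in clusters of tandem copies. By position, 91 of the 124 members fell into 15 clusters of at least 3 members in which neighbouring members were at most 20000 bases apart.

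The 4 libraries held 1789947 to 8227127 reads, of which 457054 to 1324943 were on transcripts outside mtDNA. This was 31.9% and 25.5% of the control reads and 6.93% and 6.30% of those in *DmAngel* KO. The targeted gene angel had 2 and 0 reads in control against 1 and 1 in the knockout, too few to check the labels. The sources differ on whether the 2 libraries of a genotype are biological or technical replicates, so p-values measure only the spread between these libraries, which may be technical. Over the 49 cuticle genes tested, the libraries of a genotype differed by more than sampling noise (chi-square 162 in control against 603 in *DmAngel* KO, 48 degrees of freedom). Levels are given on 2 scales. Reads per 1000000 (RPM) are relative to all reads outside mtDNA in the library, and scaled RPM are divided further by the TMM factor of the library, a normalisation factor that centres the bulk of genes at no change (0.783 and 0.796 in control, 1.34 and 1.20 in *DmAngel* KO). Beside this difference between the scales, 3 storage protein genes, Lsp1alpha, Lsp1beta and Lsp1gamma, held 30.6% and 16.1% of these reads in control against 3.70% and 2.33% in *DmAngel* KO. Without TMM factors the median log2 fold change over all genes tested was 0.70, with them it was 0.01, and with a library size that left out glue and fat body genes in place of the factors it was 0.29.

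Cuticle genes as a whole took a similar share of the reads outside mtDNA in both genotypes, and a lower share of all reads in *DmAngel* KO. They held 21355 and 8559 reads in control against 11556 and 8723 in *DmAngel* KO, a share of the reads outside mtDNA of 1.61% and 1.87% in control and 2.04% and 1.68% in the knockout. On the RPM scale the mean was 17422 ± 1845 (SD, n = 2) in control against 18616 ± 2513 (SD, n = 2) in *DmAngel* KO, and the groups overlapped. On the scaled RPM scale the same reads came to 20574 and 23540.5 in control against 15249.5 and 14033 in *DmAngel* KO, and the groups did not overlap. Relative to all reads of the library, mtDNA included, they came to 5134 and 4782 per 1000000 in control against 1413.5 and 1060.3 in *DmAngel* KO, a log2 ratio of -2.00. The direction of the summed level thus depended on the total.

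The families differed more than their sum. The 6 Lcp genes outside 65A held 44.1% of all cuticle reads, the Cpr genes 25.6%, the Lcp65A genes 25.4%, the Twdl genes 4.20% and the Ccp84A genes 0.683%. In RPM, the Lcp genes outside 65A had 7714 and 9086 in control against 8230 and 5959 in *DmAngel* KO. The Lcp65A genes had 4214 and 4846 in control against 5086 and 3973 in *DmAngel* KO. In both of these families the groups overlapped. The Cpr genes had 3675 and 3938 RPM in control against 6180 and 5185 in *DmAngel* KO, so that both knockout libraries lay above both controls. The Twdl genes had 444 and 748 RPM in control against 745 and 1459 in *DmAngel* KO, with the lower knockout library just under the higher control. The Ccp84A genes had 66.4 and 103 RPM in control against 136 and 253 in *DmAngel* KO. On this scale the log2 ratio of the group means was 0.58 for Cpr, 0.89 for Twdl, 1.20 for Ccp84A, -0.00024 for Lcp65A and -0.24 for Lcp outside 65A. On the scaled RPM scale the ratio was -0.11 for Cpr, 0.23 for Twdl, 0.55 for Ccp84A, -0.69 for Lcp65A and -0.94 for Lcp outside 65A. Relative to all reads of the library, mtDNA included, these 5 families were all lower in *DmAngel* KO, from -0.90 for Ccp84A to -2.34 for Lcp outside 65A. The families' order depended on single libraries, as without *DmAngel* KO replicate 2 the log2 ratio in RPM was 0.70 for Cpr, 0.68 for Ccp84A and 0.32 for Twdl. The ratios are descriptions of sums and were not tested.

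For single genes, edgeR's quasi-likelihood test was run on the counts of all genes, with TMM factors and Benjamini-Hochberg adjustment over the 2994 genes that passed the filter on low counts. Of the 124 members, 112 had at least 1 read and 49 passed the filter. Those tested were 20 Cpr, 11 Twdl, 9 Lcp65A, 5 other Lcp and 4 Ccp84A genes. The 63 members with reads that were not tested had at most 51 reads each over the 4 libraries, and the other 12 had none. At an adjusted p under 0.05, 3 members were lower in *DmAngel* KO and 0 were higher, and 11.2% of all genes tested were called (7.01% lower, 4.18% higher). The 3 were Cpr49Ac, Lcp1 and Lcp2. They were also called without each library in turn, in fits where 1 group is a single library whose spread is taken from the other group, while the number of lower members was 8 without control replicate 1 and 5 without control replicate 2, and 6 members were higher without control replicate 2, beside 6.24%, 11% and 4.44% of all genes. At an unadjusted p under 0.05, edgeR gave 8 lower and 3 higher members, beside 15.1% and 12.7% of all genes, and DESeq2 called 6 lower and 0 higher at its adjusted threshold, beside 5.98% and 2.27% of all genes. With the replicate number as a block 8 were lower, beside 12.4% of all genes, without TMM factors 12 were higher, beside 24.5%, and with all reads as library size 35 were lower, beside 62.8%. The share of members called lower, 3 of 49, was not above that of all genes in this edgeR fit, and it was above it in 8 of the 12 alternative fits. These 12 fits reuse the same 4 libraries, so the tally is not independent evidence of a difference from all genes. The median log2 fold change of the 49 members was 0.11, against 0.01 for all genes. By family the median was -1.20 for Lcp outside 65A, -0.09 for Lcp65A, -0.02 for Cpr, 0.49 for Ccp84A and 0.66 for Twdl.

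**Figure D1:**
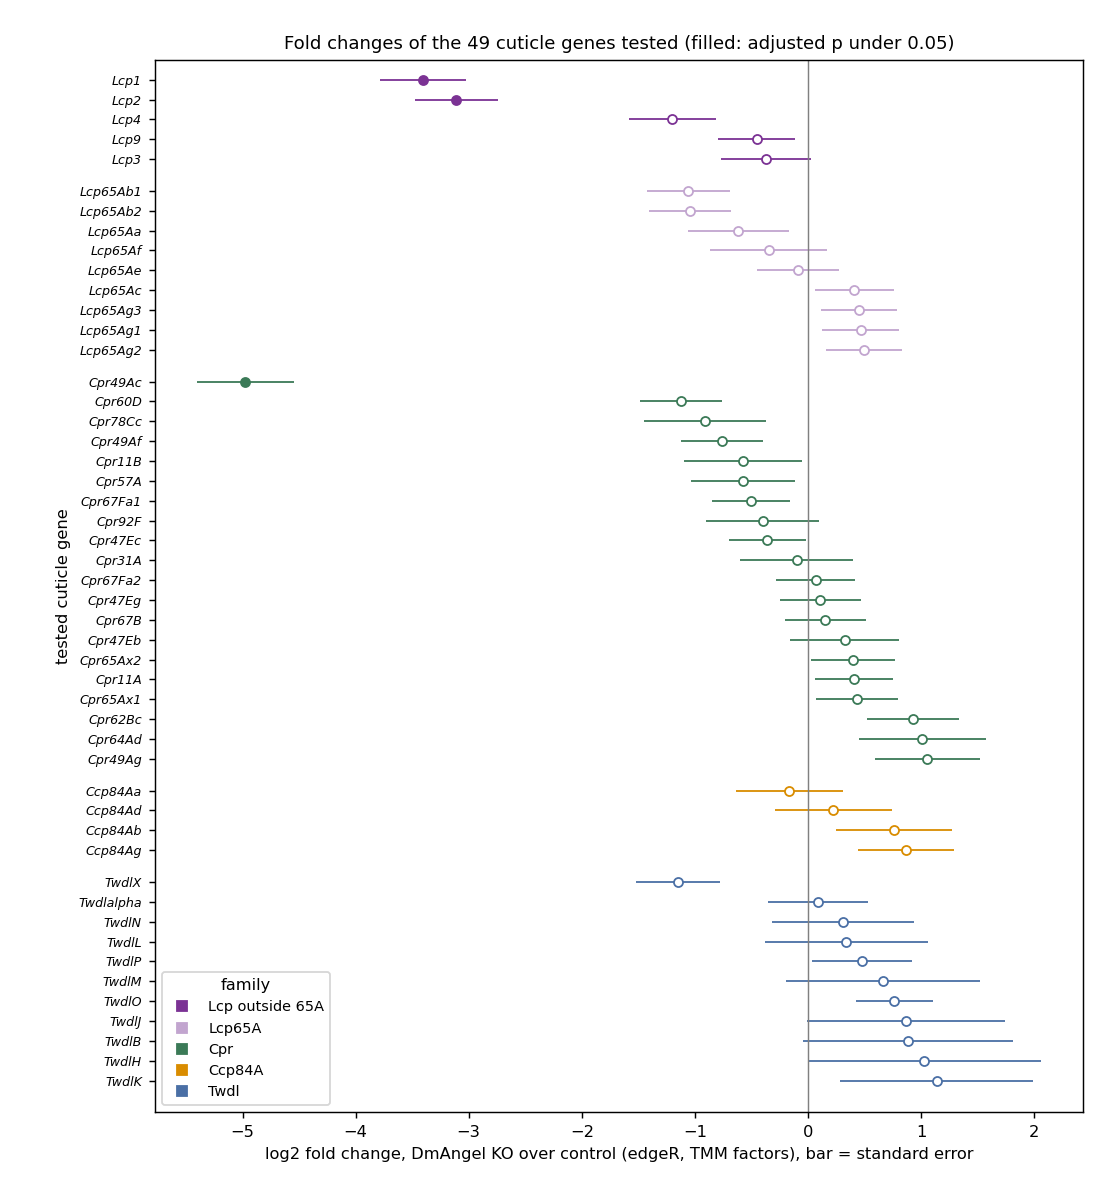
Log2 fold change of *DmAngel* KO over control for each of the 49 tested cuticle genes, grouped by family (colour) and sorted within it, with the standard error of edgeR's fit as a bar. Cpr49Ac, Lcp1 and Lcp2, the filled points, lie at -4.97, -3.41 and -3.11, while the other 46 genes lie between -1.20 and 1.14.

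Cpr49Ac had the largest difference of all tested members. This CPR gene (FBgn0033725) lies on the plus strand of chromosome 2R at 12386666 to 12390057, inside a cluster of 8 Cpr genes at 49A. It had 593 and 239 reads in control against 18 and 9 in *DmAngel* KO. In scaled RPM this was 571 and 657 in control (614 ± 60.8, SD, n = 2) and 23.8 and 14.5 in *DmAngel* KO (19.1 ± 6.56, SD, n = 2). Both knockout libraries were far below both controls. The level was 31.4-fold lower in *DmAngel* KO (log2 fold change -4.97, SE 0.43, edgeR adjusted p = 3.3e-05). Its 6 annotated transcripts each held 15.0% to 18.7% of its reads, and the difference was tested on their sum.

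Its 2 tested neighbours in the cluster were not called. Cpr49Af had 114 and 165 scaled RPM in control against 73.9 and 88.5 in *DmAngel* KO (log2 fold change -0.76, SE 0.36, edgeR adjusted p = 0.194). Cpr49Ag had 19.3 and 11.0 in control against 33.0 and 35.4 in *DmAngel* KO (log2 fold change 1.05, SE 0.46, edgeR adjusted p = 0.161). Neither gene passed the threshold, although the groups did not overlap in either. Counted within each library, and so free of any scaling between libraries, Cpr49Ac had 430 and 373 reads per 100 reads on Cpr49Af and Cpr49Ag in control against 22.2 and 11.7 in *DmAngel* KO. These pairs of genes were chosen after their values were seen, as were those of the other read ratios given here, and the ratios have no test.

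Lcp1 and Lcp2 were the other called genes. They encode major proteins of the third-instar cuticle and lie on the minus strand of chromosome 2R, Lcp1 (FBgn0002531) at 8430115 to 8431243 and Lcp2 at 8433797 to 8434785, with the pseudogene Lcp1Psi between them. Lcp1 had 1206 and 460 reads in control against 95 and 64 in *DmAngel* KO, which came to 1162 and 1265 scaled RPM in control (1214 ± 73.0, SD, n = 2) and 125 and 103 in *DmAngel* KO (114 ± 15.8, SD, n = 2). It was 10.6-fold lower in the knockout (log2 fold change -3.41, SE 0.38, edgeR adjusted p = 0.000174). Lcp2 had 912 and 337 reads in control against 87 and 58 in *DmAngel* KO, or 879 and 927 scaled RPM in control against 115 and 93.3 in the knockout. It was 8.65-fold lower (log2 fold change -3.11, SE 0.37, edgeR adjusted p = 0.000267). For both genes the lower control library lay far above the higher knockout library. Lcp1 and Lcp2 are near copies between which reads could be split by the authors' counting, and summed they gave a log2 fold change of -3.28 (edgeR adjusted p = 0.000327).

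The other protein-coding genes of the same cluster, Lcp3 and Lcp4, are transcribed from the opposite strand and were the most highly read cuticle genes per kilobase of coding sequence. Lcp3 lies at 8435310 to 8436095 and Lcp4 at 8437647 to 8438495 on chromosome 2R. Lcp3 had 3755 and 4365 scaled RPM in control against 3572 and 2698 in *DmAngel* KO, a log2 fold change of -0.37 (SE 0.40, edgeR adjusted p = 0.588). Lcp4 had 3193 and 3895 in control against 1673 and 1404 in *DmAngel* KO, a log2 fold change of -1.20 (SE 0.38, edgeR adjusted p = 0.0638). Lcp4 lay lower in both knockout libraries without passing the threshold, and it passed in 5 of its 11 alternative fits, DESeq2 and the fits without either control library among them. Within each library, Lcp1 and Lcp2 together had 29.4 and 26.5 reads per 100 reads on Lcp3 and Lcp4 in control against 4.58 and 4.78 in *DmAngel* KO. Lcp4 had 85.0 and 89.2 reads per 100 on Lcp3 in control against 46.8 and 52.1 in *DmAngel* KO. Both ratios differed between the genotypes by more than between the libraries of a genotype. Lcp9, a single gene elsewhere on 2R (24779979 to 24780428), had 858 and 971 scaled RPM in control against 668 and 668 in *DmAngel* KO (log2 fold change -0.45, edgeR adjusted p = 0.420).

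**Figure D2:**
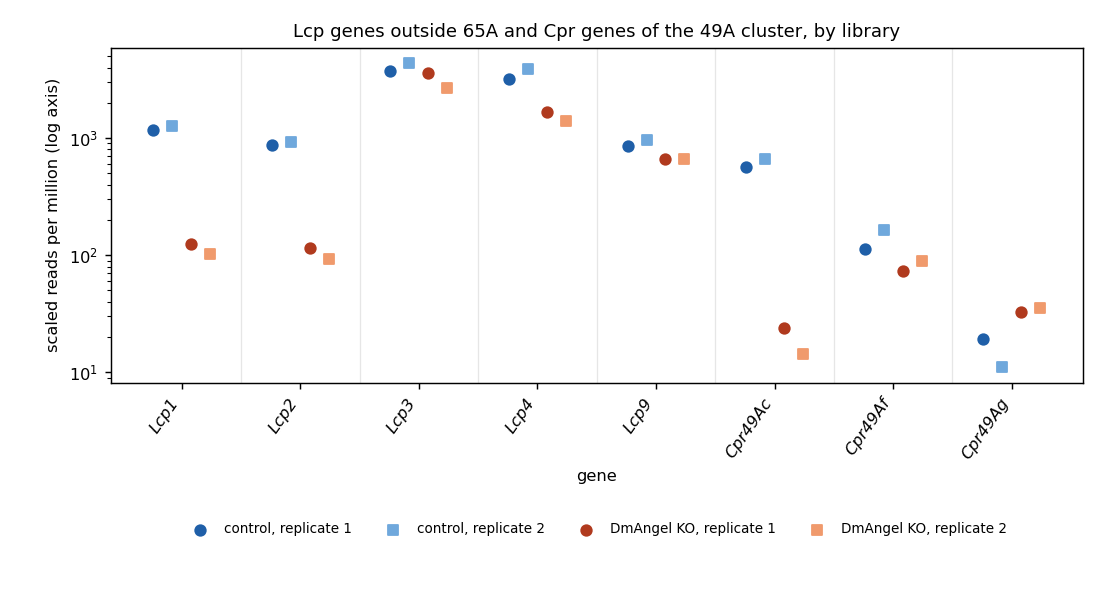
Scaled RPM (log axis) of the 5 tested Lcp genes outside 65A and of the 3 tested genes of the 49A cluster in each library, control in blue and *DmAngel* KO in red. Lcp1, Lcp2 and Cpr49Ac are separated between the genotypes by 8.65-fold to 31.4-fold. The other log2 fold changes, none past the threshold, are -0.37 for Lcp3, -1.20 for Lcp4, -0.45 for Lcp9, -0.76 for Cpr49Af and 1.05 for Cpr49Ag.

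The 65A cluster on chromosome 3L (6130386 to 6161589) is the largest, with 19 members. Of its 11 tested members 0 were called, beside 11.2% of all genes tested. Its summed level was 6378 and 6884 scaled RPM in control against 5236 and 4212 in *DmAngel* KO. Lcp65Ab1 and Lcp65Ab2, a pair of near copies that alternates along the chromosome with the pair Cpr65Ax1 and Cpr65Ax2, were its most highly read genes. Lcp65Ab1 had 2245 and 2497 scaled RPM in control against 1246 and 1031 in *DmAngel* KO (log2 fold change -1.06, SE 0.37, edgeR adjusted p = 0.0837). Lcp65Ab2 had 2180 and 2500 in control against 1192 and 1079 in *DmAngel* KO (log2 fold change -1.04, SE 0.37, edgeR adjusted p = 0.0852). In both, the knockout libraries lay below the controls without passing the threshold, which each passed in 4 of its 11 alternative fits. Summed as near copies, the pair gave -1.05 (edgeR adjusted p = 0.105).

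The tandem copies Lcp65Ag1, Lcp65Ag2 and Lcp65Ag3 stood on the other side. Lcp65Ag1 had 231 and 272 scaled RPM in control against 395 and 298 in *DmAngel* KO (log2 fold change 0.47, SE 0.34, edgeR adjusted p = 0.403). Lcp65Ag2 and Lcp65Ag3 had log2 fold changes of 0.49 and 0.45, and the sum of the 3 copies gave 0.46 (edgeR adjusted p = 0.423). None of these passed the threshold. Within each library the Lcp65Ag copies had 15.1 and 15.4 reads per 100 on the Lcp65Ab pair in control against 45.3 and 41.4 in *DmAngel* KO.

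Of the remaining tested genes of the cluster, Cpr65Ax1 had 336 and 226 scaled RPM in control against 458 and 306 in *DmAngel* KO (log2 fold change 0.43, edgeR adjusted p = 0.477). Cpr65Ax2, its near copy, had 637 and 525 in control against 962 and 573 in *DmAngel* KO (log2 fold change 0.40, edgeR adjusted p = 0.522). In both copies the groups overlapped. Lcp65Ac and Lcp65Ae had log2 fold changes of 0.41 and -0.09, and Lcp65Aa had -0.62 at a low level of 14.5 to 26.0 scaled RPM. Lcp65Af had 82.9 and 116 scaled RPM in control but 33.0 and 122 in *DmAngel* KO, the widest gap between replicates in this cluster.

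**Figure D3:**
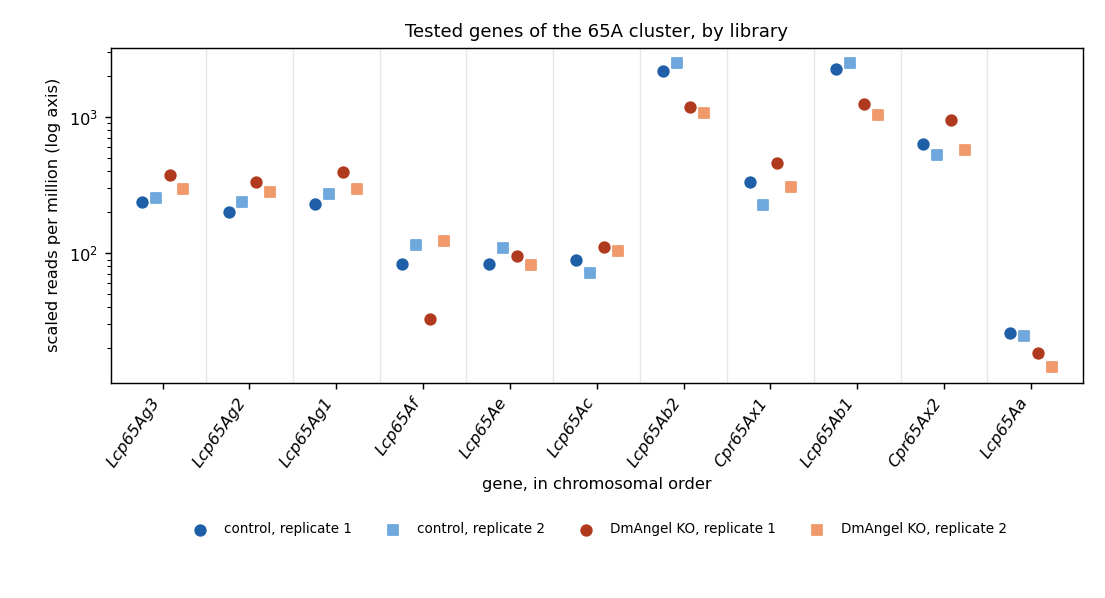
Scaled RPM (log axis) of the 11 tested genes of the 65A cluster in each library, in chromosomal order, control in blue and *DmAngel* KO in red. The Lcp65Ab pair lies lower in both knockout libraries (log2 fold changes -1.06 and -1.04) and the 3 Lcp65Ag copies higher (0.45 to 0.49), none past the threshold.

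Outside these clusters 0 Cpr genes were called, beside 11.2% of all genes tested. Cpr47Eg (2R, 11277957 to 11278445), the Cpr gene with the most reads, had 1700 and 1804 scaled RPM in control against 1874 and 1903 in *DmAngel* KO, a log2 fold change of 0.11 (SE 0.36, edgeR adjusted p = 0.869). Its 4 libraries lay closer together than those of any other cuticle gene named here. The knockout level of Cpr47Eg, 5380 scaled RPM per kilobase of coding sequence, exceeded that of Lcp4 (4580) and of Lcp65Ab1 (3649), whereas in control the order was reversed, with 4991 for Cpr47Eg, 10547 for Lcp4 and 7600 for Lcp65Ab1. Cpr60D lay lowest among the uncalled Cpr genes, with 115 and 129 scaled RPM in control against 50.1 and 61.1 in *DmAngel* KO (log2 fold change -1.13, SE 0.36, edgeR adjusted p = 0.0644). Cpr62Bc lay on the high side, with 34.7 and 52.3 in control against 87.1 and 72.4 in *DmAngel* KO (log2 fold change 0.93, SE 0.40, edgeR adjusted p = 0.158). Cpr60D and Cpr62Bc fall outside the naming rule and were chosen after their values were seen, as were Cpr49Af, Cpr49Ag and the 65A genes other than Lcp65Ab1, Lcp65Ab2, Lcp65Ag1, Cpr65Ax1 and Cpr65Ax2.

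The Ccp84A genes, a cluster of small cuticle protein genes at 84A (3R, 6686728 to 6704903), were read at a low level. Of the 4 tested 0 passed the threshold, beside 11.2% of all genes tested. Ccp84Ag had 31.8 and 33.0 scaled RPM in control against 46.2 and 72.4 in *DmAngel* KO (log2 fold change 0.87, SE 0.43, edgeR adjusted p = 0.211). Ccp84Ad had 16.4 and 30.3 in control against 17.2 and 33.8 in *DmAngel* KO (log2 fold change 0.22, edgeR adjusted p = 0.816). Ccp84Aa had 17.3 and 30.3 in control against 18.5 and 20.9 in *DmAngel* KO (log2 fold change -0.17, edgeR adjusted p = 0.849). The groups overlapped for Ccp84Ad and Ccp84Aa and not for Ccp84Ag.

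Among the Twdl genes, directions were mixed and 0 of 11 tested passed the threshold, beside 11.2% of all genes tested. TwdlO, with the most reads, had 172 and 242 scaled RPM in control against 350 and 347 in *DmAngel* KO (log2 fold change 0.76, SE 0.34, edgeR adjusted p = 0.171). TwdlX, on the X chromosome, had 154 and 237 in control against 72.6 and 101 in *DmAngel* KO (log2 fold change -1.15, SE 0.37, edgeR adjusted p = 0.0660). The groups did not overlap for either gene. TwdlX passed the threshold in 3 of its 12 alternative fits, that without control replicate 1 among them (-1.55, edgeR adjusted p = 0.00263). Within each library TwdlO had 112 and 102 reads per 100 on TwdlX in control against 482 and 343 in *DmAngel* KO.

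The large Twdl cluster on 3R (26619118 to 26641054, 12 members, 9 tested) held genes whose level varied between libraries of one genotype more than between genotypes. TwdlM had 24.1 and 82.5 scaled RPM in control against 10.6 and 146 in *DmAngel* KO (log2 fold change 0.66, SE 0.86, edgeR adjusted p = 0.661). The 7 genes TwdlB, TwdlH, TwdlJ, TwdlK, TwdlL, TwdlM and TwdlN, grouped after their values were seen, had 124 and 113 reads in control against 40 and 359 in *DmAngel* KO, or 119 and 311 scaled RPM in control against 52.8 and 578 in the knockout. In RPM, replicate 2 was 2.64 times replicate 1 in control and 9.82 times in *DmAngel* KO for their sum. Gene by gene the range was 1.62 to 4.83 in control and 4.19 to 37.2 in the knockout. Over all genes tested the same ratio, with a pseudocount of 0.5 reads, had a median of 1.00 in control against 0.906 in *DmAngel* KO, with 5th and 95th percentiles of 0.414 and 2.47 in control against 0.439 and 1.97 in the knockout, so that each of the 7 genes lay above the 95th percentile in the knockout pair. TwdlO and TwdlP, in the same cluster, did not vary this way, with 194 and 264 scaled RPM together in control against 376 and 381 in *DmAngel* KO. Without control replicate 2, which has the higher values in that genotype, TwdlB, TwdlH, TwdlJ, TwdlK and TwdlM were called higher in *DmAngel* KO, and without *DmAngel* KO replicate 1 TwdlK was, beside 2.79% of all genes. Without *DmAngel* KO replicate 2 the log2 fold change of TwdlM was -2.27.

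**Figure D4:**
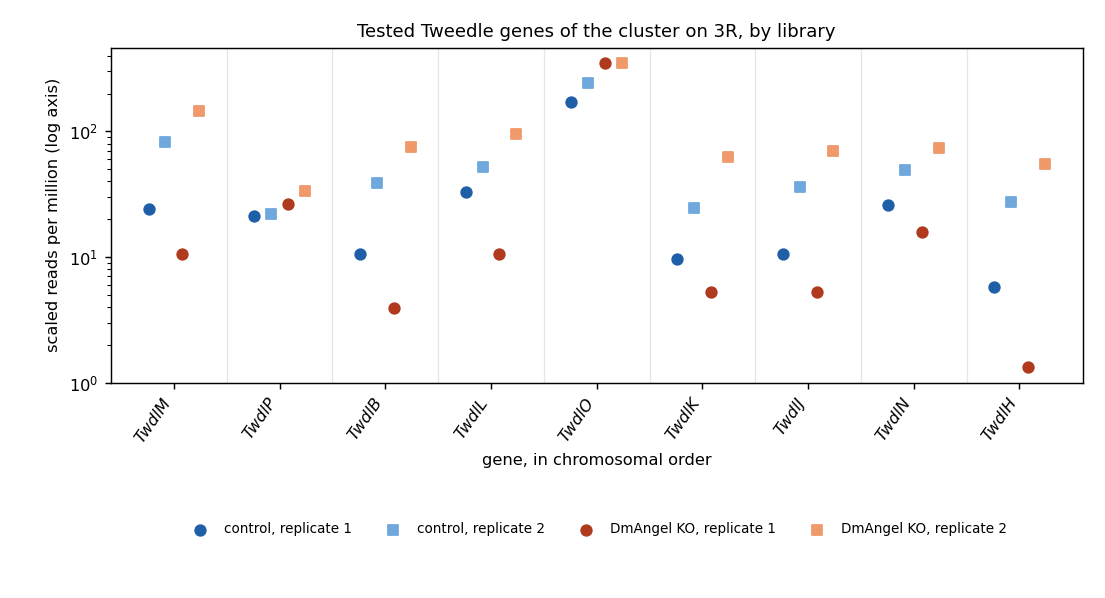
Scaled RPM (log axis) of the 9 tested Twdl genes of the 3R cluster in each library, in chromosomal order, circles for replicate 1 and squares for replicate 2, control in blue and *DmAngel* KO in red. For 7 genes replicate 2 lies above replicate 1 in both genotypes, by up to 4.83 times in control and 37.2 times in *DmAngel* KO on the RPM scale, whereas TwdlO and TwdlP have no such gap.

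Reads on Acp65A and the Edg members were few or absent. Acp65A, named as an adult cuticle protein, had 3 and 1 reads in control against 0 and 0 in *DmAngel* KO. Edg78E and Edg84A are known from the pupal cuticle. Edg78E had 2 and 0 reads in control against 0 and 2 in *DmAngel* KO, and Edg84A had none. Edg91 had 2 and 1 reads in control against 9 and 3 in the knockout. The floor of 3 reads stood at 2.89 and 8.25 scaled RPM in control against 3.96 and 4.83 in *DmAngel* KO, so differences among these genes were not detectable at this depth. The 12 members with no read in any library were Cpr30B, Cpr47Ea, Cpr49Aa, Cpr49Ah, Cpr64Ac, Cpr65Au, Cpr65Az, Cpr67Fb, Cpr72Eb, Cpr72Ec, TwdlU and Edg84A.

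Other genes that build the cuticle were compared as listed groups. Of 22 genes for chitin synthesis and assembly, 21 were found and 16 tested (median log2 fold change -0.27). Of these 0 were called, beside 11.2% of all genes tested. Cht6, a chitinase gene with the most reads of this group, had 348 and 470 scaled RPM in control against 251 and 299 in *DmAngel* KO (log2 fold change -0.57, edgeR adjusted p = 0.304). Of 10 other cuticle and apical matrix genes, 5 were tested and 1 was called lower, beside 7.01% of all genes tested. This was Vajk3, with 1260 and 1711 scaled RPM in control against 647 and 621 in *DmAngel* KO. Its log2 fold change was -1.23 (SE 0.36, edgeR adjusted p = 0.0483). Vajk3 passed the threshold in 6 of its 12 alternative fits, and not without either *DmAngel* KO library. dpy, which encodes a giant apical matrix protein and had the most reads of this group, had 16160 and 35414 scaled RPM in control against 9208 and 14218 in *DmAngel* KO (log2 fold change -1.14, edgeR adjusted p = 0.200), and it passed the threshold in 3 of its 12 alternative fits, that without control replicate 1 among them (-1.70, edgeR adjusted p = 0.0453). Of 8 tanning genes only stw, a laccase gene, was tested (log2 fold change -0.53, edgeR adjusted p = 0.384).

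Genes known to be active in other tissues towards the end of the third instar were read beside the cuticle genes. The Sgs genes encode the salivary glue with which the animal fixes itself before pupation. Sgs3 had 74 and 65 reads in control against 0 and 0 in *DmAngel* KO, at least 45.6-fold lower against a floor of 3 reads over both knockout libraries. Sgs7 had 69 and 54 reads in control against 0 and 0 in *DmAngel* KO, at least 40.4-fold lower. Sgs5 had 54 and 26 reads in control against 1 and 0 in *DmAngel* KO, and Sgs5bis 48 and 11 in control against 0 and 1 in the knockout. Of 7 glue and intermoult genes tested of 21 listed, these 4 were called lower and 0 higher. Over all genes tested, 7.01% were called lower and 4.18% higher. The other 3 tested genes of the list, ng1, ng2 and ng3, are intermoult genes of the salivary gland, and ng1 and ng2 had log2 fold changes of 0.24 and 0.33 (edgeR adjusted p = 0.808 and 0.682). ng3, with the most reads of the list, had 59.7 and 138 scaled RPM in control against 81.8 and 135 in *DmAngel* KO (log2 fold change 0.19, edgeR adjusted p = 0.816).

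The third-instar proteins of the fat body, the organ that stores protein for metamorphosis, were called lower for 6 of 6 genes. Among all genes tested, 7.01% were called lower. Fbp1, a receptor for storage proteins, had 4105 and 1277 reads in control against 4 and 3 in *DmAngel* KO (log2 fold change -9.47). Fbp2 had 524 and 160 reads in control against 3 and 1 in the knockout, and Lsp2, a storage protein gene, 2899 and 511 in control against 3 and 0 in the knockout. Lsp1beta, with the most reads of the group, had 156828 and 28915 reads in control against 11291 and 6365 in *DmAngel* KO, a log2 fold change of -3.20 (edgeR adjusted p = 0.0079), and its call was lost without either *DmAngel* KO library. The median log2 fold change was -6.96 in this group and -5.46 among the 7 glue and intermoult genes, against 0.01 over all genes. Of 25 ecdysone response genes 9 were tested. Beside 4.18% of all genes, 1 of these 9 was called higher. This was ImpL2, which encodes a secreted insulin-binding protein, with 31.8 and 27.5 scaled RPM in control against 76.5 and 82.0 in *DmAngel* KO (log2 fold change 1.39, SE 0.40, edgeR adjusted p = 0.0426), and its call held in 4 of 12 alternative fits and was lost when any 1 library was left out.

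**Figure D5:**
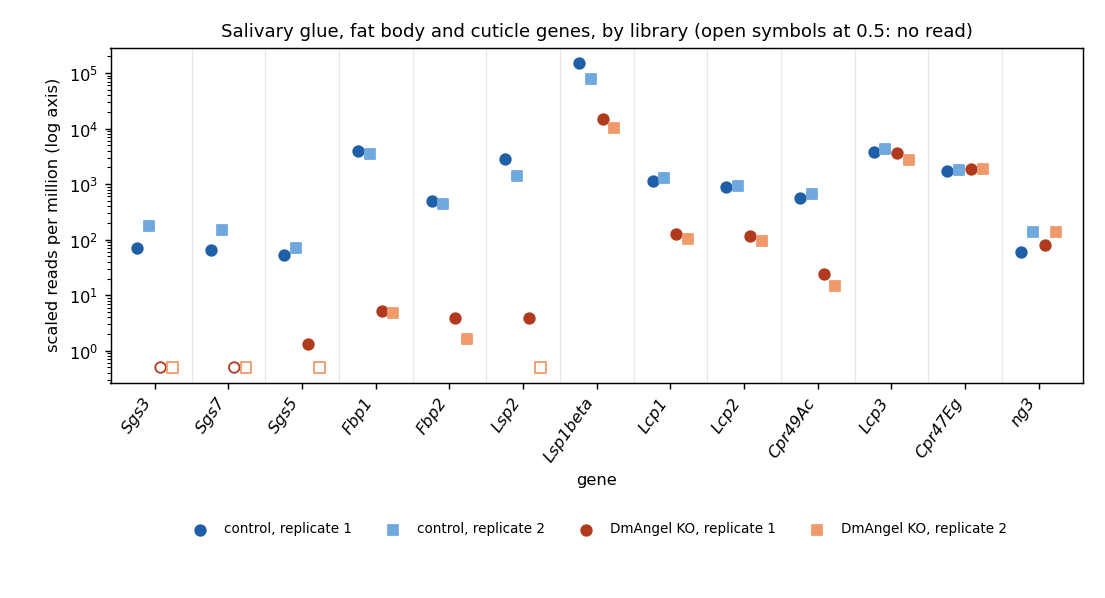
Scaled RPM (log axis) of 3 salivary glue genes, 4 fat body genes, 5 cuticle genes and ng3 in each library, control in blue and *DmAngel* KO in red, with open symbols for libraries without a read. Sgs3 and Sgs7 have no read in either knockout library, Lcp1, Lcp2 and Cpr49Ac lie 8.65-fold to 31.4-fold lower in the knockout, and Lcp3 and Cpr47Eg have log2 fold changes of -0.37 and 0.11.

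The lower levels of Lcp1, Lcp2 and Cpr49Ac thus stood beside much lower levels of glue and fat body genes, and the other 46 cuticle genes tested did not pass the threshold. Larvae were matched by age and instar in the descriptions used here, so genotype and stage within the third instar cannot be told apart in these samples.

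Markers of other tissues were read in the same libraries. The 5 epidermal markers, of the tissue that makes cuticle, summed to 440 and 457 scaled RPM in control against 314 and 322 in *DmAngel* KO. Of 4 tested, 0 were called, beside 11.2% of all genes tested. The lower sum came from verm alone, with 281 and 223 scaled RPM in control against 132 and 117 in *DmAngel* KO (log2 fold change -1.02). Those of Gasp, kkv and grh were -0.10, -0.02 and 0.92. Muscle markers summed to 39712 and 87093 in control against 33568 and 62766 in the knockout. Of the 13 tested, 0 were called, beside 11.2% of all genes tested. Most of each sum was the single gene bt, with 34398 and 80014 in control against 24352 and 57058 in the knockout. Log2 fold changes of the 13 ran from -1.19 for Tm1 to 0.84 for Act57B. Midgut markers summed to 21624 and 15586 in control against 8804 and 6049 in the knockout. Of 8 tested, 2 were called lower, Jon65Aiv and LManV, beside 7.01% of all genes tested. Log2 fold changes of the 8 ran from -4.25 to -0.46. Fat body markers were called lower for 5 of 6, beside 7.01% of all genes tested. Each of the 5 is also a gene of the third-instar fat body list. Adh, the remaining marker, had 643 and 831 scaled RPM in control against 1093 and 872 in *DmAngel* KO (log2 fold change 0.42, edgeR adjusted p = 0.479). Salivary gland markers, all of them Sgs genes of the glue list, were called lower for 3 of 3 tested, beside 7.01% of all genes. Sgs3, Sgs4, Sgs7 and Sgs8 had no read in either knockout library. Of 4 tested hemocyte markers and 2 tested nervous system markers 0 were called, beside 11.2% of all genes tested. The part of tissue make-up in the values of the cuticle genes was not tested.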

How the data were processed

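Mitochondrial ribosome profiling libraries of third-instar larvae were analysed, 2 control (wDah) and 2 *DmAngel* KO, grouped by the sample labels. The authors removed non-coding RNA reads, aligned the rest to fly transcripts with Bowtie2 and deposited read counts per transcript without normalisation. How reads that match several transcripts were shared is not given in the sources used here. Rows of nuclear transcripts (34882 of 34917 entries) were summed per gene with the BDGP6.54 annotation from Ensembl. The labels name BDGP6, and the files hold no coordinates. Of these rows, 169 were not in the annotation and were left out of the tests, though not of the library totals. They held 0.0548% to 0.0880% of the reads.

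The counts were tested with edgeR 4.0.16 in R 4.3.3 (filterByExpr, TMM factors, glmQLFit and glmQLFTest, two-sided, no covariates, 2 residual degrees of freedom), with the reads outside mtDNA as library size. In data simulated at the mean levels of these libraries, 200 genes were changed by 3 on the log2 scale and 2691 genes passed the filter. There edgeR recovered 97% with 5 false calls and DESeq2 1.42.0 recovered 89.5% with 8. The simulation gave all genes a common dispersion and did not copy the composition difference between the genotypes. It therefore does not show how the tests behave for smaller changes or for genes that vary more between replicates. Alternatives were DESeq2, a replicate block, no TMM factors, all reads as library size, no filter, the transcript row with the most reads, near copies summed, a library size without glue and fat body genes (chosen after seeing the data) and each library left out. The genes named were every called member, the 3 most read tested members of each family, the 5 highest per kilobase, and, from each list, the called genes (the 3 largest changes if over 5) and the most read. Members and lists were chosen with earlier results of these data known. Sequences and protein motifs were not analysed here. Intervals were not computed, and the floor of 3 reads covers counting error only.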

Additional observations from a re-analysis of the deposited data

How the results depend on the processing

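Cpr49Ac kept its direction and its call in 12 of 12 alternatives (log2 fold change -6.37 to -4.28), and Lcp1 and Lcp2 in 11 of 11 each (-4.81 to -2.72 and -4.52 to -2.42). The scaling decided most other values. With TMM factors the log2 ratio of summed levels was -0.59 for all cuticle genes, -0.11 for Cpr, -0.69 for Lcp65A, -0.94 for Lcp outside 65A, 0.55 for Ccp84A, 0.23 for Twdl and 1.59 for Edg. With all reads as the total it was -2.00, -1.53, -2.10, -2.34, -0.90, -1.21 and 0.17 in the same order. Without glue and fat body genes in the total it was -0.26 for all, 0.22 for Cpr, -0.35 for Lcp65A and -0.59 for Lcp outside 65A, and for the most read row of each gene it was 0.73 for Cpr. Leaving out each library gave -0.05 to 0.23 for all cuticle genes, 0.45 to 0.70 for Cpr, -0.19 to 0.17 for Lcp65A, -0.50 to -0.03 for Lcp outside 65A, 0.68 to 1.58 for Ccp84A, 0.32 to 1.31 for Twdl and 1.89 to 2.61 for Edg. All Edg ratios rest on 4 and 1 reads in control against 9 and 5 in *DmAngel* KO, too few to detect a difference at this depth.

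Members called lower numbered 6 with DESeq2 (adjusted p not given for 7 members), 35 of 59 with all reads as library size and 3 to 8 with a library left out, and members called higher numbered 12 without TMM factors and 0 to 6 with a library left out. Over all genes, DESeq2 called 68 higher, the fit without TMM factors 735 higher and 116 lower, that with all reads 30 higher and 2658 lower, the most read rows 139 lower, and the library size without glue and fat body genes 193 higher and 120 lower. With a library left out, 92 to 175 were higher and 118 to 433 lower. With the replicate number as a block, 8 members were lower (Cpr60D, Lcp4, Lcp65Ab1, Lcp65Ab2 and TwdlX in addition) and 250 genes were higher and 372 lower. With the block TwdlX had an edgeR adjusted p of 0.00869 and dpy, whose replicate 2 was higher in both genotypes, one of 0.000369. The correlation of replicate differences was 0.19 over all genes and 0.75 over the 49 members, and the labels do not say what a number marks. The 49 include the 7 Twdl genes whose replicate 2 lay above replicate 1 in both genotypes. A correlation without these 7 was not computed, so the value may not hold for the other members.

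Directions reversed for genes that did not pass the test and for ImpL2. Without TMM factors the log2 fold change was 0.52 for Ccp84Aa, 0.32 for Lcp3, 0.23 for Lcp9, 0.11 for Cht6 and 0.15 for stw. With all reads as library size it was -1.24 for Ccp84Ad, -0.60 for Ccp84Ag, -1.32 for Cpr47Eg, -0.99 for Cpr65Ax1, -1.01 for Cpr65Ax2, -0.94 for Lcp65Ag1, -0.84 for TwdlM, -0.65 for TwdlO, -1.24 for ng3 and -0.061 for ImpL2. It was 0.14 for Ccp84Aa without glue and fat body genes in the library size. Leaving out each library gave -0.72 to 0.069 for Ccp84Aa, -0.41 to 0.51 for Ccp84Ad, -0.038 to 0.042 for Cpr47Eg, -0.024 to 0.66 for Cpr65Ax1, -0.16 to 0.65 for Cpr65Ax2, -2.27 to 1.56 for TwdlM and -0.45 to 0.74 for ng3. The causes were not tested.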
